A study of Homo sapiens with 18 samples.

Results

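The genes described here are 10 transcription factors used to recognise definitive endoderm (DE), out of 57808 genes in a table of RNA-seq and ribosome footprint counts from 18 libraries. They were chosen by name: SOX17, GATA6, GATA4, FOXA2, EOMES, GSC, MIXL1, HHEX, LHX1 and OTX2. All 10 have a row of their own in the table. The cells were MEL1, an established human embryonic stem cell line with GFP inserted at the insulin gene, at 3 stages: undifferentiated (hPSC), DE, and beta cells differentiated from them in stirred suspension, split by a GFP sort (GFP+ sBC and GFP- sBC). The hPSC and DE libraries of every assay have the genotype RPL22-FLAG, a tagged protein of the large ribosomal subunit. The GFP+ sBC used for footprints received RPL22-FLAG by lentivirus, whereas the GFP+ and GFP- sBC used for RNA have no tag listed, so that stage and tag cannot be told apart between sBC and DE in RNA. RNA-seq covered all 4 cell populations, footprints of all ribosomes (Ribo) covered hPSC and DE, and footprints from ribosomes precipitated through FLAG (IP-Ribo) covered hPSC, DE and GFP+ sBC. Each of the 9 groups held 2 libraries. The labels do not say whether these came from separate cultures, so the p-values measure the spread between libraries, which may be technical.

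Definitive endoderm is the germ layer from which the gut, liver and pancreas form. In the embryo it arises from cells that pass through the primitive streak under Nodal signalling, and in culture activin, a ligand of the same receptors, can take the place of Nodal. Nodal and activin act through SMAD2 and SMAD3, which bind DNA together with partners such as FOXH1 and EOMES. EOMES, MIXL1, GSC and LHX1 are known from the streak and the organiser that forms at its end, OTX2 from the anterior part of the embryo, and SOX17, GATA6, GATA4, FOXA2 and HHEX from the endoderm itself. FOXA2, GATA4, GATA6 and HHEX are used again later, when the foregut gives rise to liver and pancreas.

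Library totals ran from 27.36 to 92.53 M counts for RNA, from 22.29 to 30.17 M for Ribo and from 6.61 to 23.11 M for IP-Ribo. Levels are given as CPM (counts per 1000000) after TMM normalisation within an assay. They compare libraries for a given gene and not genes with each other, because transcript lengths were not used. In DE Ribo replicate 1 only 40.5% of counts fell on protein-coding genes, against 76.0% in DE Ribo replicate 2. Results on DE Ribo are therefore also given without replicate 1. In the GFP+ sBC IP-Ribo libraries this share was 54.6% and 62.8%, against 84.1% to 90.4% in hPSC and DE IP-Ribo. That difference and stage cannot be told apart where GFP+ sBC IP-Ribo is compared. POU5F1, a pluripotency factor, had 42.4 and 40.9 CPM in DE RNA against 1836 and 1868 CPM in hPSC RNA. CXCR4, a chemokine receptor used to sort endoderm, had 268 and 296 CPM in DE RNA against 1.18 and 1.29 CPM in hPSC RNA. INS, the insulin gene, had 4397 and 4828 CPM in GFP+ sBC RNA against 1702 and 981 CPM in GFP- sBC RNA. Both GFP+ libraries lay above both GFP- libraries, but the difference did not pass (log2 fold change 1.78 ± 0.41, edgeR adjusted p = 0.0749). GCG, the glucagon gene of alpha cells, had 30778 and 20167 CPM in GFP+ sBC RNA against 16607 and 10544 CPM in GFP- sBC RNA, and CHGA, a marker of endocrine cells, overlapped between the sorted populations.

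All 10 factors were higher in DE than in hPSC, and this held in RNA, in Ribo and in IP-Ribo. The RNA change was largest for GSC and GATA6 and smallest for OTX2. Summed over the 10 genes, RNA came to between 3644 and 3835 CPM in DE libraries and between 76.7 and 88 CPM in hPSC libraries. In bulk samples fewer cells with a transcript and less of it per cell cannot be told apart. All 10 passed an adjusted p of 0.05 in RNA (edgeR's quasi-likelihood test with Benjamini-Hochberg adjustment), where 38.7% of the 20634 genes tested were called higher. The members' median log2 fold change was 7.05, against 0.01 over all genes tested. By the rank of its fold change each member lay between place 25 (GSC) and place 728 (OTX2) among those genes.

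Among the factors of the streak and organiser, EOMES, a T-box factor that in the mouse is required for endoderm to form, had 440 and 474 CPM in DE RNA against 2.9 and 2.7 CPM in hPSC RNA. MIXL1, a homeobox factor of the streak, had 280 and 272 CPM in DE RNA against 4.18 and 4.11 CPM in hPSC RNA. GSC (goosecoid), a homeobox repressor first described in the organiser of the frog, had 179 and 206 CPM in DE RNA against 0.412 and 0.352 CPM in hPSC RNA. Each of these was low in both hPSC libraries and high in both DE libraries, with no overlap. The log2 fold changes were 7.4 ± 0.08 for EOMES, 6.11 ± 0.06 for MIXL1 and 9.02 ± 0.13 for GSC (± SE of the fit, n = 2 libraries each). LHX1, a LIM homeobox factor needed for the head organiser in the mouse, had 286 and 338 CPM in DE RNA against 4.65 and 4.47 CPM in hPSC RNA. OTX2, a homeobox factor of the anterior embryo that pluripotent cells also express, had 589 and 646 CPM in DE RNA against 51.0 and 63.0 CPM in hPSC RNA. OTX2 was thus already present in hPSC, and its log2 fold change of 3.49 ± 0.11 was below that of LHX1, 6.15 ± 0.11.

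Among the endoderm factors, SOX17, an HMG-box factor and a standard marker of this layer, had 469 and 471 CPM in DE RNA against 1.69 and 1.53 CPM in hPSC RNA. GATA6, a zinc finger factor, had 642 and 651 CPM in DE RNA against 1.63 and 1.62 CPM in hPSC RNA. GATA4, a close relative of GATA6, had 426 and 437 CPM in DE RNA against 1.72 and 2.14 CPM in hPSC RNA. For all 3 the libraries of a stage lay close together and far from those of the other stage. Their log2 fold changes were 8.24 ± 0.07 for SOX17, 8.69 ± 0.07 for GATA6 and 7.85 ± 0.08 for GATA4. FOXA2, a forkhead factor that opens chromatin at endoderm genes, had 192 and 194 CPM in DE RNA against 7.15 and 6.57 CPM in hPSC RNA. HHEX, a homeobox factor of the anterior endoderm, had 140 and 147 CPM in DE RNA against 1.38 and 1.48 CPM in hPSC RNA. FOXA2 changed less than the other 4 endoderm factors, by 4.87 ± 0.06 on the log2 scale, and HHEX changed by 6.7 ± 0.08. The adjusted p-values of the 10 genes in RNA ran from 2.53e-13 (GATA6) to 1.71e-06 (OTX2).

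**Figure D1:**
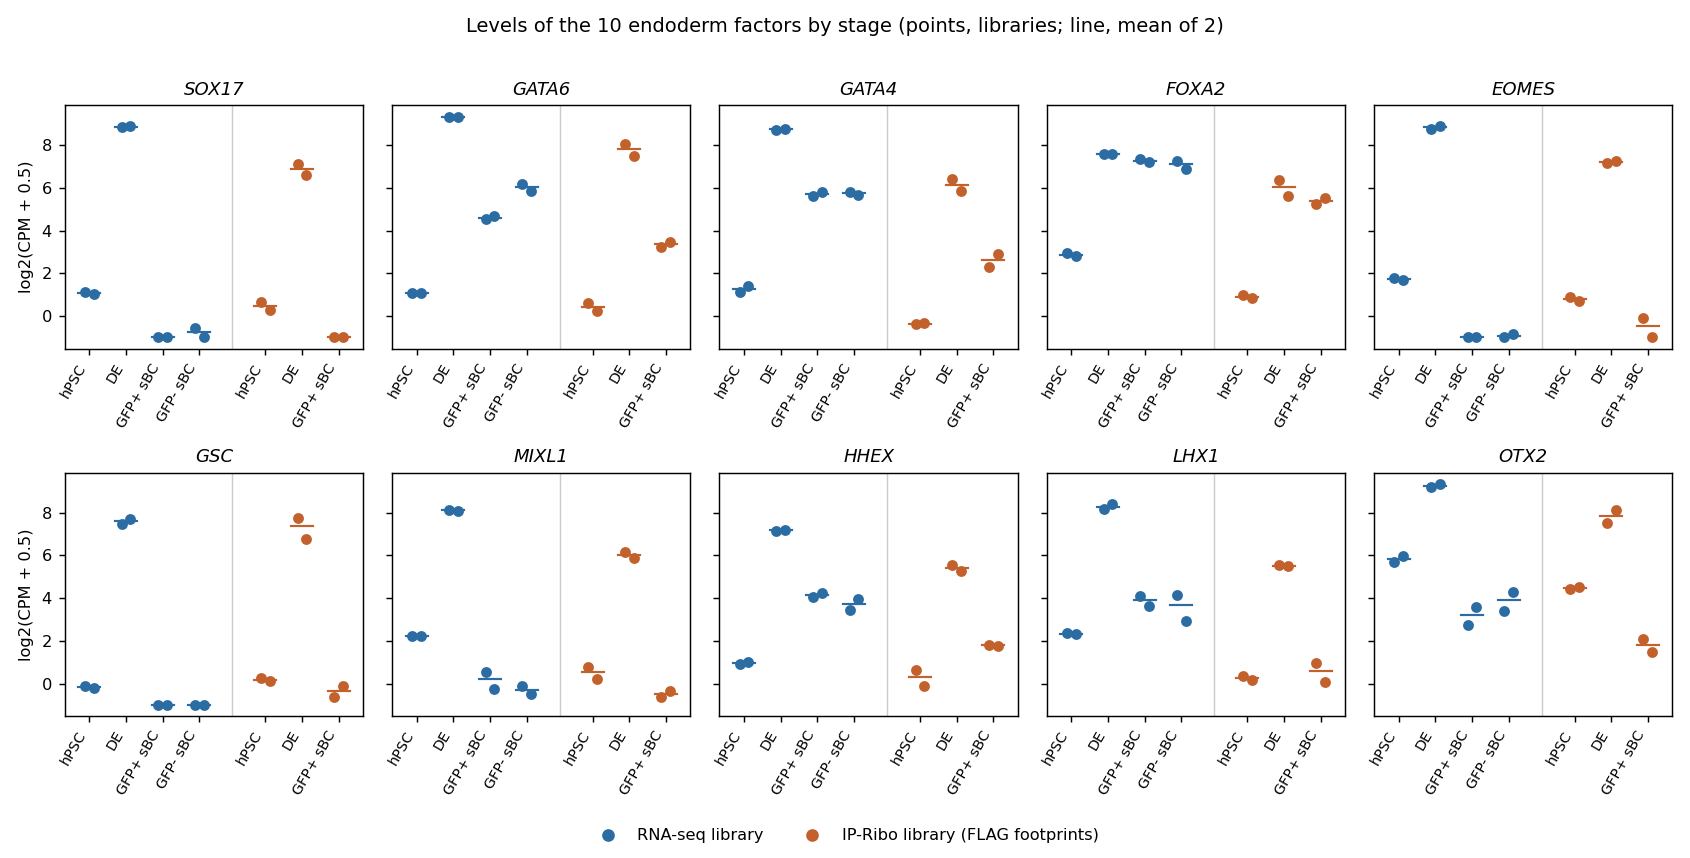
Level of each of the 10 factors by stage, as log2(CPM + 0.5), in RNA (blue) and IP-Ribo (orange); points are single libraries and short lines are the means of 2 libraries. Every factor peaks in DE; SOX17, EOMES and GSC drop to 0 CPM in GFP+ sBC RNA, whereas FOXA2 stays at 161 and 147 CPM.

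The factors were read by ribosomes as well. In Ribo, GATA6 had 94.0 and 134 CPM in DE against 0.533 and 0.333 CPM in hPSC. EOMES had 95.2 and 114 CPM in DE Ribo against 0.381 and 0.931 CPM in hPSC Ribo, and OTX2 had 147 and 195 CPM against 14 and 14.9 CPM. No library of DE overlapped with a library of hPSC for any of the 10 genes. The share of all genes separated in this way was not counted. All 10 passed in Ribo, where 17.2% of genes tested were higher, with log2 fold changes from 3.56 ± 0.21 (OTX2) to 8.56 ± 0.7 (GSC). The hPSC side of these folds rests on few counts, for example 7 and 1 counts of GSC and 13 and 4 of SOX17 in the 2 hPSC Ribo libraries. Without hPSC Ribo replicate 2, 5 of the 10 passed; SOX17, GATA4, FOXA2, LHX1 and OTX2 then had adjusted p-values of 0.0523 to 0.0591. Without hPSC Ribo replicate 1, OTX2 alone missed, with an adjusted p of 0.0534, and all 10 passed without DE Ribo replicate 1.

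In IP-Ribo, GATA6 had 268 and 182 CPM in DE against 1.02 and 0.675 CPM in hPSC. SOX17 had 140 and 96.5 CPM in DE IP-Ribo against 1.07 and 0.723 CPM in hPSC IP-Ribo. GSC had 218 and 109 CPM in DE IP-Ribo against 0.678 and 0.578 CPM in hPSC IP-Ribo. For these 3 the DE libraries differed more from each other than in RNA, yet both lay above both hPSC libraries for every member. How many of all genes showed that order was not counted. All 10 passed, where 9.78% of genes tested were higher, with log2 fold changes from 3.39 ± 0.32 (OTX2) to 8.05 ± 0.39 (GATA6). The median over the members was 6.51 in Ribo and 6.51 in IP-Ribo, against 0.03 and -0.07 over all genes tested. GATA4 had the widest gap between the footprint assays, with log2 fold changes of 7.91 ± 0.42 in IP-Ribo and 6.66 ± 0.39 in Ribo; that gap was not tested.

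**Figure D2:**
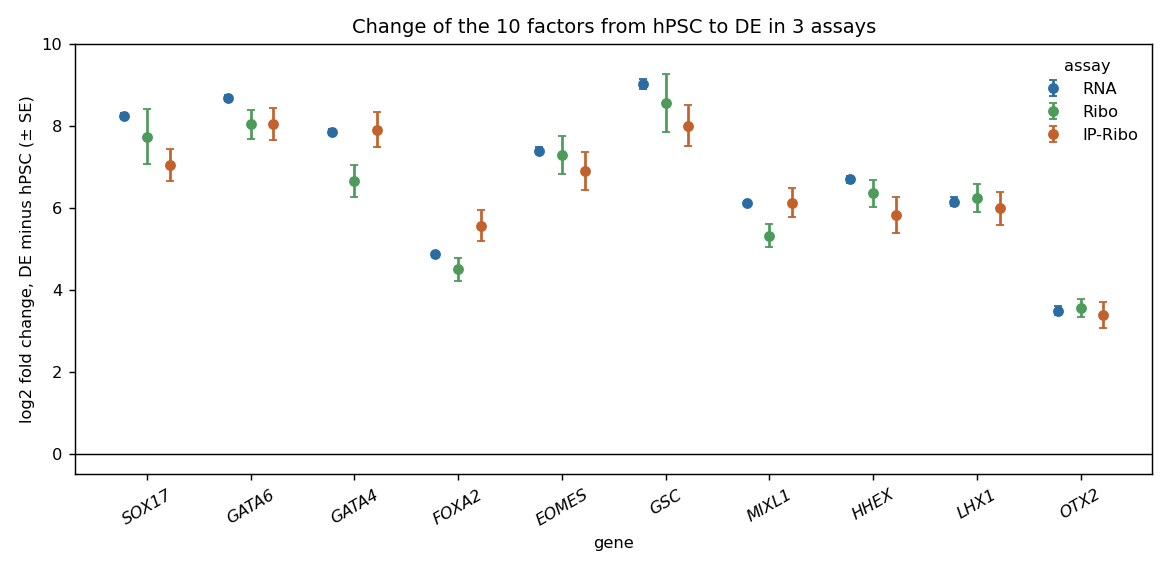
Log2 fold change of each factor, DE over hPSC, in RNA, Ribo and IP-Ribo; points are estimates of the fit and bars are ± 1 SE, from 2 libraries per group. All 30 values are above 0, from 3.39 for OTX2 in IP-Ribo to 9.02 for GSC in RNA.

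Sequence before the start was at hand for 6 of the 10 factors (RefSeq, GRCh38.p14), in windows of 250 bases before to 50 bases after the start. These were searched on both strands for 7 short motifs, chosen after the sequences had been seen: TGTGGATT for FOXH1, CTTTGAT for TCF and LEF factors, TATAAA for the TATA box, AGATAA for the GATA family, ACAATG for SOX factors, TAATCC for OTX and GSC factors and AGGTGTGA for T-box factors. Below are the 250 bases before the start of MIXL1 at chr1:226223414-226223663 (plus strand), GSC at chr14:94770114-94770363 (minus strand) and GATA6 at chr18:22169339-22169588 (plus strand). MIXL1 and GSC are shown because they hold a match, and GATA6 because it changed by more than MIXL1 and holds none; capitals mark matches, and sequences run 5′ to 3′ on the strand of the gene.
MIXL1: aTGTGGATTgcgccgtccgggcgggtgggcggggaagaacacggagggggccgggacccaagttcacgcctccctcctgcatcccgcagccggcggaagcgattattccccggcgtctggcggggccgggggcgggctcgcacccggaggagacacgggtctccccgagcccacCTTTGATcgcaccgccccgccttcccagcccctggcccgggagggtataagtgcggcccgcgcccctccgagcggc
GSC: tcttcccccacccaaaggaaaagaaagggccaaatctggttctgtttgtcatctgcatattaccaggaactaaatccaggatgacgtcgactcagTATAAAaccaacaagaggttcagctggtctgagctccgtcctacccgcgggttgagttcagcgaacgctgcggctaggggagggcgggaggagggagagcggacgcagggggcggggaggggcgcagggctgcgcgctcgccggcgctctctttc
GATA6: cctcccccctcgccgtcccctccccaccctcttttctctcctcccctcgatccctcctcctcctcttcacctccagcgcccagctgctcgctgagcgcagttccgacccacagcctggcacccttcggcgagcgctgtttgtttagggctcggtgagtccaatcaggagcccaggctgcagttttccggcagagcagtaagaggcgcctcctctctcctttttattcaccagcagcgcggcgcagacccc
MIXL1 held the FOXH1 letters 249 bases before the start and the TCF and LEF letters 76 bases before it. Of 35116 promoters in the same reference 0.817% held the FOXH1 letters and 2.62% the TCF and LEF letters. GSC held TATAAA 155 bases before its start, as did 11.5% of promoters on either strand. EOMES had TTTATA 31 bases before the start used and OTX2 had TTATCT, the GATA letters on the other strand, 115 bases before the start used in 1 of its 2 windows; both of those windows lie inside the annotated gene. GATA6 and HHEX held none of the 7 motifs. A match is a run of letters, not a measured binding site.

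Between DE and the sorted GFP+ and GFP- sBC the factors differed in how far they fell. SOX17, EOMES and GSC were at 0 counts in GFP+ sBC RNA, MIXL1 was close to 0, LHX1, OTX2, GATA6, GATA4 and HHEX were lower than in DE but present, and FOXA2 was near its DE level. In GFP+ sBC RNA 9 of the 10 were lower than in DE, where 30.9% of 23321 genes tested were lower, and FOXA2 did not pass. The same 9 were lower in GFP- sBC RNA, where 28.1% of genes were lower, and in GFP+ sBC IP-Ribo, where 24.8% of 16018 genes were lower. The members' median log2 fold change was -5.44 for GFP+ sBC RNA, -5.04 for GFP- sBC RNA and -5.88 for GFP+ sBC IP-Ribo, against 0, 0.09 and -0.03 over all genes tested. All these comparisons share the DE libraries of their assay.

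SOX17 had 0 counts in both GFP+ sBC RNA libraries, against 71858 counts over the 2 DE RNA libraries. With 3 counts over the group as the floor, SOX17 was at least 11300-fold lower in GFP+ sBC RNA than in DE RNA, EOMES at least 11000-fold and GSC at least 4640-fold. GSC was also at 0 in GFP- sBC RNA, at least 4960-fold below DE. GFP- sBC RNA held 8 counts of SOX17, all in replicate 1, and 2 counts of EOMES, both in replicate 2, so that each gene was at 0 in the other library. Over both libraries, DE RNA over GFP- sBC RNA was 4554 for SOX17 (95% counting interval 2311 to 10548) and 17706 for EOMES (4901 to 146211). In IP-Ribo, SOX17 had 0 counts in GFP+ sBC and was at least 512-fold lower than in DE, and EOMES, GSC and MIXL1 had 3, 4 and 3 counts. Intervals and floors cover counting error only.

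MIXL1 fell to 0.946 and 0.346 CPM in GFP+ sBC RNA and to 0.414 and 0.206 CPM in GFP- sBC RNA, against 280 and 272 CPM in DE RNA. Its mean in GFP+ sBC RNA was 0.234% of that in DE. The log2 fold change was -8.75 ± 0.5 for GFP+ sBC and -9.75 ± 0.53 for GFP- sBC. OTX2 had 6.22 and 11.4 CPM in GFP+ sBC RNA and 9.99 and 19.1 CPM in GFP- sBC RNA, which is below its hPSC level. LHX1 had 16.9 and 12 CPM in GFP+ sBC RNA and 17.2 and 7.14 CPM in GFP- sBC RNA. For OTX2 and LHX1 the GFP+ and GFP- libraries overlapped, and all of them lay below both DE libraries. Against DE the log2 fold change in GFP+ sBC RNA was -6.13 ± 0.46 for OTX2 and -4.43 ± 0.44 for LHX1.

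The GATA factors and HHEX kept a lower level. GATA4 had 48.5 and 56.6 CPM in GFP+ sBC RNA and 56.2 and 50.7 CPM in GFP- sBC RNA, so that its GFP+ mean was 12.2% of that in DE. HHEX, which in the islet is known from delta cells, had 15.9 and 18.3 CPM in GFP+ sBC RNA and 10.5 and 15.2 CPM in GFP- sBC RNA. GATA6 had 22.8 and 25.3 CPM in GFP+ sBC RNA and 72.7 and 57.5 CPM in GFP- sBC RNA. GATA4 overlapped between the sorted populations, whereas for GATA6 both GFP+ libraries lay below both GFP- libraries and for HHEX both lay above. Log2 fold changes against DE in GFP+ sBC RNA were -3.04 ± 0.2 for GATA4, -3.07 ± 0.24 for HHEX and -4.75 ± 0.21 for GATA6. In GFP+ sBC IP-Ribo GATA6 had 9.08 and 10.7 CPM, GATA4 had 4.47 and 7.06 CPM and HHEX had 3.03 and 2.85 CPM. The log2 fold change against DE there was -4.5 ± 0.32 for GATA6, -3.62 ± 0.33 for GATA4 and -3.85 ± 0.4 for HHEX.

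FOXA2 had 161 and 147 CPM in GFP+ sBC RNA and 153 and 120 CPM in GFP- sBC RNA, against 192 and 194 CPM in DE RNA. All 4 sBC libraries lay below both DE libraries. The log2 fold change was -0.32 ± 0.19 for GFP+ sBC (edgeR adjusted p = 0.164) and -0.5 ± 0.19 for GFP- sBC (edgeR adjusted p = 0.0504), neither past the threshold. Leaving out a GFP- sBC library brought both past it, with adjusted p-values of 0.0106 and 0.00982 for GFP+ sBC, and DESeq2 gave 0.0344 for GFP- sBC. In IP-Ribo FOXA2 had 37.6 and 45.4 CPM in GFP+ sBC against 83.5 and 48.7 CPM in DE, a log2 fold change of -0.67 ± 0.3 (edgeR adjusted p = 0.0969). Here DE IP-Ribo replicate 2 lay close to the sBC libraries; without it the log2 fold change was -1.02 (adjusted p = 0.0171), and with no filter on low counts it was -0.81 (adjusted p = 0.0288). FOXA2 was the member with the highest share of its DE level, 79.8% in GFP+ sBC RNA, 71.0% in GFP- sBC RNA and 62.8% in GFP+ sBC IP-Ribo.

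**Figure D3:**
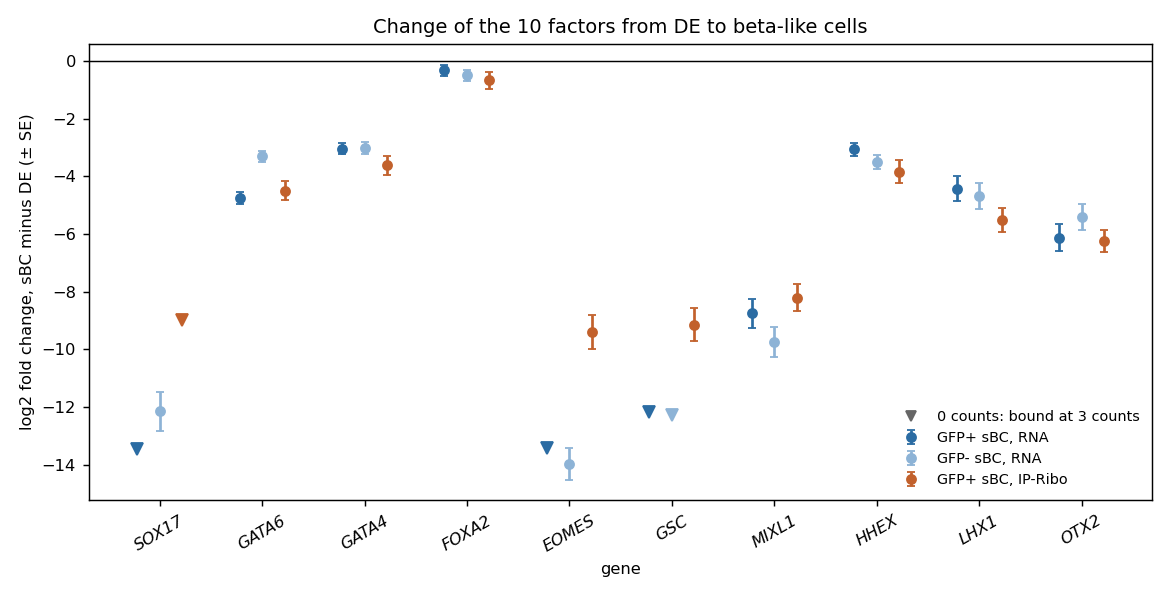
Log2 fold change of each factor against DE, for GFP+ sBC and GFP- sBC in RNA and for GFP+ sBC in IP-Ribo; points are estimates with bars of ± 1 SE, and triangles are bounds at a floor of 3 counts for groups with 0 counts. FOXA2 lies nearest 0, between -0.32 and -0.67, and SOX17, EOMES, GSC and MIXL1 lie lowest.

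Set against the starting cells rather than DE, the sBC split the 10 factors evenly. In GFP+ sBC RNA 5 factors were higher than in hPSC, where 30.4% of genes tested were higher: GATA4 by 4.76 ± 0.22 on the log2 scale, FOXA2 by 4.49 ± 0.22, GATA6 by 3.89 ± 0.21, HHEX by 3.58 ± 0.25 and LHX1 by 1.67 ± 0.4. The other 5 were lower, where 30.9% of genes were lower. MIXL1 and OTX2 both had a log2 fold change of -2.69, with SE of 0.42 and 0.39. SOX17 was at least 38.9-fold, EOMES at least 67.5-fold and GSC at least 9.2-fold lower than in hPSC. The LHX1 call rested on hPSC RNA replicate 2, without which its adjusted p was 0.0543 and its log2 fold change 1.63. In IP-Ribo 4 factors were higher than in hPSC (FOXA2 4.9 ± 0.36, GATA4 4.3 ± 0.42, GATA6 3.55 ± 0.34 and HHEX 1.97 ± 0.44), where 30.4% of genes were higher. SOX17, EOMES, MIXL1 and OTX2 were lower, where 28.5% of genes were lower, while LHX1 (0.47 ± 0.47, edgeR adjusted p = 0.41) and GSC (-1.14 ± 0.74, edgeR adjusted p = 0.218) did not pass. EOMES and MIXL1 had 3 footprint counts each in GFP+ sBC, so that hPSC over GFP+ sBC was 5.83 for EOMES (95% counting interval 1.88 to 29.3) and 4.34 for MIXL1 (1.37 to 22), and SOX17 was at least 4.21-fold lower in GFP+ sBC. EOMES missed the threshold without hPSC IP-Ribo replicate 1 (adjusted p = 0.0633) or GFP+ sBC IP-Ribo replicate 2 (0.0766). MIXL1 missed it without hPSC IP-Ribo replicate 1 (0.0746), without GFP+ sBC IP-Ribo replicate 1 (0.0994) and by DESeq2 (0.0521).

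The factors were also compared across the GFP sort itself. Of the 7 that could be tested, 0 passed in edgeR, where 2.43% of 19797 genes passed; SOX17, EOMES and GSC had too few counts. At an unadjusted p of 0.05 the count was 1, and by DESeq2 it was 1, GATA6 in both cases. GATA6 was lower in GFP+ than in GFP- sBC, with a log2 fold change of -1.44 ± 0.35 (edgeR adjusted p = 0.0851). It passed when all 8 RNA libraries shared a fit (adjusted p = 0.00572), by DESeq2 (0.0065) and with no filter on low counts (0.0123). The other 6 had log2 fold changes from -0.73 ± 0.49 (OTX2) to 1.03 ± 0.78 (MIXL1), none past the threshold, which does not show that their levels were alike. Islet hormone cell markers, 10 genes, summed to between 45237 and 51899 CPM in GFP+ sBC RNA and between 25923 and 41578 CPM in GFP- sBC RNA, with 0 of 10 at 0. Of these 10, SST alone passed, higher in GFP+ sBC (2.77 ± 0.34), where 0.0808% of genes tested were higher. GCG gave 30778 and 20167 CPM of the GFP+ sums and 16607 and 10544 CPM of the GFP- sums. CHGA gave 14739 and 18283 CPM of the GFP+ sums and 22399 and 13430 CPM of the GFP- sums. Neural ectoderm markers, 7 genes, had a median log2 fold change of -2.81 between GFP+ and GFP- sBC, with 3 lower and 0 higher, where 2.35% of genes were lower. One of the 3 was NES, an intermediate filament gene of neural progenitors, with 3.44 and 2.53 CPM in GFP+ sBC RNA against 337 and 88.1 CPM in GFP- sBC RNA. The 7 summed to between 295 and 408 CPM in GFP+ sBC RNA and between 255 and 534 CPM in GFP- sBC RNA, with 0 of 7 at 0 in either. PAX6, which is also among the 10 islet hormone cell markers, gave 402 and 288 CPM of the GFP+ sums. In GFP- sBC RNA PAX6 had 174 and 156 CPM. Markers of yolk sac and liver endoderm, tissues that also use GATA4, GATA6 and FOXA2, summed over 7 genes to between 6029 and 8735 CPM in GFP+ sBC RNA, between 6413 and 6832 CPM in GFP- sBC RNA and between 251 and 276 CPM in DE RNA. TTR gave 6040 and 3984 CPM of the GFP+ sums and 3456 and 2431 CPM of the GFP- sums. SERPINA1 gave 1645 and 1093 CPM of the GFP+ sums and 2050 and 3264 CPM of the GFP- sums. AFP had 250 and 169 CPM and ALB 67.2 and 68.0 CPM in GFP+ sBC RNA. The part of these cell types in the levels of the factors was not tested.

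In DE no factor passed in edgeR between the footprints of the pull-down and those of all ribosomes, which does not show that the levels were alike. The log2 ratio of IP-Ribo to Ribo in DE was above 0 for all 10 factors, from 0.11 ± 0.24 (LHX1) to 1.26 ± 0.47 (GSC). FOXA2 was at 0.9 ± 0.29 and GATA6 at 0.69 ± 0.29. A ratio above 0 was common among all genes: by rank LHX1 was at place 6859 and GSC at place 793 of the 16679 tested. None of the 10 passed in edgeR, where 0.863% of 16679 genes passed; the count was 3 at an unadjusted p of 0.05 (GATA6, FOXA2 and GSC) and 1 by DESeq2 (GSC, log2 ratio 1.29, adjusted p = 0.0315). With no filter on low counts FOXA2 and GSC passed. Without DE Ribo replicate 1 the ratio of GATA4 was -0.02, that of LHX1 -0.17 and that of OTX2 -0.07.

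Footprints relative to RNA differed between the factors in DE. This log2 ratio of CPM had a median of -1.83 over 9908 protein-coding genes for Ribo, with quartiles at -2.65 and -1.02, and of -1.43 for IP-Ribo, with quartiles at -2.35 and -0.64. GATA4 and LHX1 had the lowest Ribo ratios, -3.17 and -3.16, at percentiles 13.3 and 13.4 of all those genes. MIXL1 followed at -2.84, SOX17 at -2.82 and FOXA2 at -2.72, also below the lower quartile. GATA4 and LHX1 were lowest in IP-Ribo as well, at -2.59 and -2.77. GSC had the highest ratio in both, -0.23 in IP-Ribo, with its libraries at 0.18 and -0.81, and -1.77 in Ribo, with its libraries at -2.04 and -1.55. In Ribo, replicate 1, the library with 40.5% of counts on protein-coding genes, lay below replicate 2 for all 10 factors. In replicate 2 alone, where the lower quartile of the same genes was -2.64 and the median -1.79, LHX1 (-2.91), GATA4 (-2.87) and MIXL1 (-2.78) still lay below the lower quartile, whereas FOXA2 (-2.57) and SOX17 (-2.52) lay above it. In replicate 1 SOX17 was at -3.19 and FOXA2 at -2.9. The ratios are not corrected for transcript length.

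**Figure D4:**
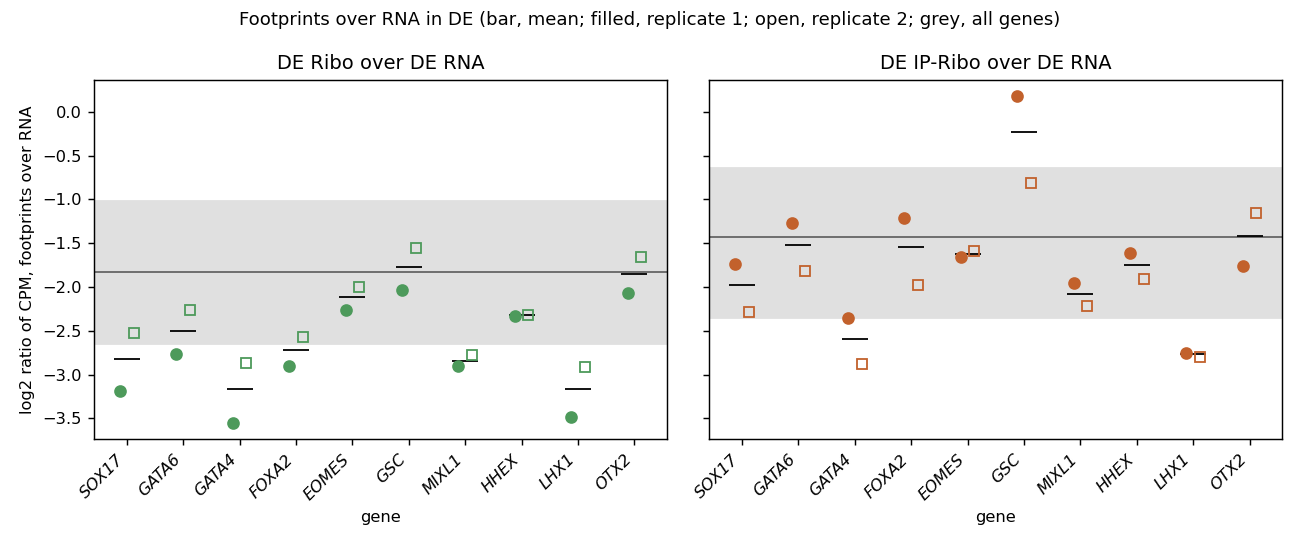
Log2 ratio of footprint CPM to RNA CPM in DE for each factor, in IP-Ribo and Ribo; filled points are replicate 1, open points replicate 2 and bars their mean, and the grey band and line give the quartiles and median of 9908 protein-coding genes. GATA4 and LHX1 sit lowest in both assays, and GSC highest.

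The change in footprints over RNA between stages was tested as the interaction of assay and stage. From hPSC to DE no factor passed in edgeR, where few genes passed at all, which does not show that the ratios stayed alike. The median log2 change over all genes tested was 0.14 in Ribo and 0.16 in IP-Ribo, and over the 10 factors -0.21 and 0.03. In Ribo 0 of 10 factors passed in edgeR, where 0.314% of genes passed; 1 had an unadjusted p under 0.05 and 1 passed by DESeq2, MIXL1 in both (edgeR log2 change -0.6 ± 0.24, DESeq2 adjusted p = 0.036). Without DE Ribo replicate 1, again 0 passed, with log2 changes from -0.97 (GATA4) to 0.29 (LHX1). Without DE Ribo replicate 2, which leaves only the DE library with 40.5% of counts on protein-coding genes, 3 passed: GATA4 at -1.72, GATA6 at -1.06 and MIXL1 at -1.0. In IP-Ribo 0 passed in edgeR, where 0.167% of genes passed, 2 had an unadjusted p under 0.05 (SOX17 at -0.84 ± 0.36 and FOXA2 at 1.04 ± 0.36) and 0 passed by DESeq2. FOXA2 passed without DE IP-Ribo replicate 2 (adjusted p = 0.031).

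From DE to GFP+ sBC, footprints over RNA passed as lower for LHX1 and HHEX, calls that depended on single libraries. In DE both assays came from cells with the RPL22-FLAG genotype, whereas in GFP+ sBC the footprints came from cells given RPL22-FLAG by lentivirus and the RNA from cells with no tag listed, so that stage and tag cannot be told apart in this ratio. The log2 change was -1.64 ± 0.42 for LHX1 (edgeR adjusted p = 0.0263) and -1.31 ± 0.35 for HHEX (edgeR adjusted p = 0.0319), and GATA4 lay just outside the threshold at -1.11 ± 0.33 (edgeR adjusted p = 0.0501). In all 3 of 10 passed, where 14.2% of 22210 genes passed. The remaining call was EOMES, which had 0 RNA counts and 3 footprint counts in GFP+ sBC, so that its fitted change of 7.2 has no size to interpret. All 3 footprint counts were in replicate 1, and without that library the fitted change was 0.39 (edgeR adjusted p = 1.0). The count was 6 at an unadjusted p of 0.05 and 5 by DESeq2. Within GFP+ sBC, LHX1 footprints over RNA stood at -3.33 and GATA4 at -3.08, percentiles 6.0 and 8.3 of 9825 genes, against a median of -1.02. LHX1 rested on 14 footprint counts and HHEX on 42. The footprint and RNA samples of GFP+ sBC also differed in a marker, NES. It had 40.1 and 32.3 CPM in GFP+ sBC IP-Ribo against 3.44 and 2.53 CPM in GFP+ sBC RNA. In DE, NES had 110 and 92.3 CPM in IP-Ribo against 165 and 132 CPM in RNA. PAX6 went the other way, with a log2 change of -1.44 ± 0.38. The part of cell content in this ratio was not tested. Leaving out libraries one at a time, HHEX kept its call without DE IP-Ribo replicate 2 or either hPSC IP-Ribo library, and missed it in the other 9 of 12 fits with adjusted p-values of 0.0527 to 0.128. LHX1 missed it without either DE RNA library (adjusted p = 0.0977 and 0.0579), without GFP+ sBC RNA replicate 1 (0.0774) and without GFP+ sBC IP-Ribo replicate 2 (0.15, log2 change -1.03). GATA4 passed by DESeq2 (adjusted p = 0.0398), with the stricter filter (0.0496), and without DE IP-Ribo replicate 2 (0.0203) or GFP+ sBC IP-Ribo replicate 2 (0.0251).

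The pattern over the 9 groups sorted the factors too. On log2 CPM, SOX17 was closest among the members to EOMES (Pearson r = 1.0), GSC (0.99) and MIXL1 (0.99), GATA6 to HHEX (0.98) and GATA4 (0.97), and FOXA2 to GATA4 (0.92). FOXA2 and OTX2 had the least in common (0.23). Among 12032 genes, the ones closest to SOX17 were CYP26A1 (0.995), which breaks down retinoic acid, BTK (0.994) and SERPINE2 (0.992). CYP26A1 was also closest to EOMES (0.994), BTK to MIXL1 (0.995) and SERPINE2 to GSC (0.989). TBX3 was closest to HHEX (0.997), CAPN13 to GATA6 (0.995), RIPPLY3 to GATA4 (0.993), DLC1 to LHX1 (0.986) and ARHGAP42 to OTX2 (0.994). FOXA2 stood with KLF5 (0.995), BCAR3 (0.99) and HNF4A (0.99), the last a nuclear receptor of liver and gut. These are descriptions over group means that share libraries and depth.

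Genes around the factors gave the setting. Of 15 genes of the Nodal and activin pathway, 10 were higher and 3 lower in DE than in hPSC RNA (median log2 fold change 0.93), where 38.7% of all genes tested were higher and 36.8% lower. The feedback inhibitors and the ligand led: CER1 changed by 8.09 ± 0.09, LEFTY2 by 6.52 ± 0.08, LEFTY1 by 4.78 ± 0.12 and NODAL by 2.46 ± 0.05. SMAD3 (-0.17 ± 0.06), SMAD7 (-0.19 ± 0.06) and GDF3 (-1.33 ± 0.16) were lower, and FOXH1 was higher by 0.7 ± 0.05. In footprints 9 of the 15 were higher in Ribo (17.2% of all genes) and 5 in IP-Ribo (9.78%), with 0 lower in either, where 16.9% and 12.5% of all genes were lower. In GFP+ sBC RNA, where 30.9% of all genes were lower than in DE and 29.9% higher, 12 of the 15 were lower and 2 were higher, CFC1 (6.94 ± 0.37) and ACVR1B (1.13 ± 0.21). NODAL was at 0 CPM in both GFP+ sBC RNA libraries, like SOX17, EOMES and GSC, against 148 and 144 CPM in DE RNA.

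Of 12 endoderm markers that are not transcription factors, 11 were higher in DE RNA than in hPSC RNA and APELA alone was lower (-5.15 ± 0.35). Of all genes tested, 38.7% were higher in that comparison and 36.8% were lower. CER1, FGF17 (8.09 ± 0.17), CXCR4 (7.88 ± 0.09) and CYP26A1 (7.78 ± 0.11) moved as far as the factors, and EPCAM least (0.81 ± 0.05). In GFP+ sBC RNA 11 of the 12 were lower than in DE and EPCAM was higher (1.46 ± 0.2), where 30.9% of all genes were lower and 29.9% higher. Of 17 genes of the same families as the factors 15 were tested. Of these, 10 were higher (38.7% of all genes) and 3 lower (36.8%) in DE than in hPSC, with a median of 1.53. TBX3, a T-box relative of EOMES, changed by 5.97 ± 0.18, GATA3 by 5.58 ± 0.14 and FOXA1 by 4.36 ± 0.13, while GSC2 was among the lower ones with 1 count over the DE libraries against 36 over the hPSC libraries. FOXA1, a close relative of FOXA2, was the only 1 of 14 tested that was higher in GFP+ sBC RNA than in DE (1.64 ± 0.21), with 78.0 and 69.3 CPM against 25.3 and 21.9 CPM. Of 12 later gut and pancreas factors, 8 were higher in GFP+ sBC RNA than in DE (29.9% of all genes), among them ISL1 (5.51 ± 0.23), and 2 were lower, among them HNF4A (-1.19 ± 0.19). PDX1, a master regulator of the pancreas, had 94.8 and 87.9 CPM in GFP+ sBC RNA and 1 count in each DE RNA library, and NKX6-1, a factor of beta cells and their progenitors, had 107 and 115 CPM in GFP+ sBC RNA and 1 and 2 counts in the DE RNA libraries.

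**Figure D5:**
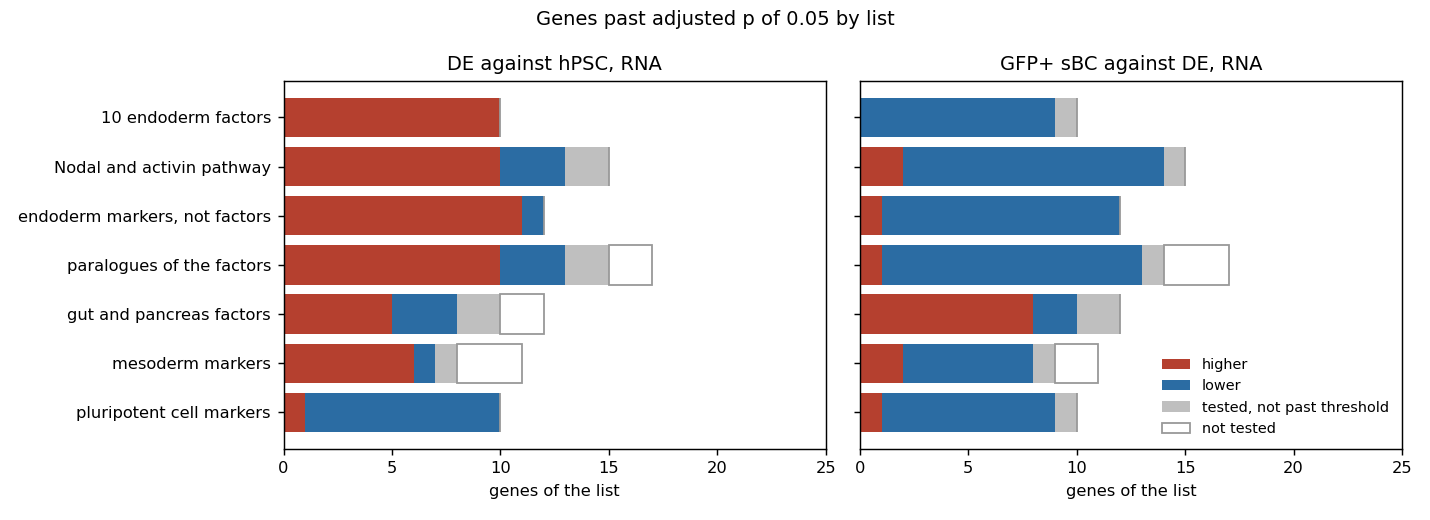
Number of genes per list that were higher, lower, not past the threshold or not tested in RNA, for DE against hPSC and for GFP+ sBC against DE. The 10 factors are all higher in DE and 9 are lower in GFP+ sBC than in DE, whereas 8 of 12 gut and pancreas factors are higher in GFP+ sBC.

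Noncoding neighbours of 4 of the factors were matched to rows of the table. All 4 were higher in DE RNA than in hPSC RNA, where 38.7% of all genes tested were higher. GATA6-AS1, 620 bases from GATA6, had 37.6 and 43.8 CPM in DE against 0.0294 and 0.113 CPM in hPSC, a log2 fold change of 9.16 ± 0.22. LINC00261, 2355 bases from FOXA2, changed by 6.44 ± 0.08, LHX1-DT, 123 bases from LHX1, by 5.1 ± 0.12 and OTX2-AS1, 1526 bases from OTX2, by 3.45 ± 0.68. In GFP+ sBC RNA GATA6-AS1, LHX1-DT and OTX2-AS1 were lower than in DE, where 30.9% of all genes tested were lower. LINC00261 had 509 and 420 CPM in GFP+ sBC RNA against 318 and 286 CPM in DE RNA (0.62 ± 0.28, edgeR adjusted p = 0.0846), so that it, like FOXA2, did not pass. A pseudogene, RNU6-702P, lies within GATA6 and a small nucleolar RNA, SNORA99, within GATA4. Whether counting used strand is not given in the sources used here, so reads of overlapping or antisense genes may not be separable.

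Markers of other cell types were read beside the DE levels. Of all genes tested, 38.7% were higher in DE RNA than in hPSC RNA and 36.8% were lower. Pluripotent cell markers, 10 genes, summed to between 3956 and 4088 CPM in DE RNA and between 11492 and 12362 CPM in hPSC RNA, with 9 lower, 1 higher and 0 of 10 at 0. Their median log2 fold change was -4.42; POU5F1 (-5.42 ± 0.05), NANOG (-5.76 ± 0.06) and SOX2 (-7.9 ± 0.33) were far lower, LIN28A (-0.64 ± 0.05) was little lower and SALL4 (0.69 ± 0.05) was higher. LIN28A gave 2565 and 2393 CPM of the DE sums of the pluripotent cell markers, and SALL4 gave 948 and 961 CPM. Mesoderm markers, 11 genes, summed to between 51.9 and 57.7 CPM in DE RNA and between 44.3 and 49.9 CPM in hPSC RNA. In DE 0 of the 11 were at 0 in both libraries, and in hPSC 1 was. Of 8 mesoderm markers tested 6 were higher and 1 lower in DE. Among the 6, BMP4 had 24.0 and 25.4 CPM in DE RNA. TBXT, TBX6, MESP1, MESP2 and HAND1 had DE RNA means from 0.451 CPM (MESP1) to 3.77 CPM (TBX6). Yolk sac and liver endoderm markers, 7 genes, summed to between 251 and 276 CPM in DE RNA and between 5.13 and 6.64 CPM in hPSC RNA, with 4 of 5 tested higher and 1 lower. HNF4A alone gave 232 and 219 CPM of the DE sums. The lower member was AFP, the alpha-fetoprotein gene of yolk sac and fetal liver, with 1 count in each DE RNA library against 114 and 167 counts in the hPSC RNA libraries. ALB, the albumin gene, had 3 counts and SERPINA1, a liver protease inhibitor, 2 counts over the DE RNA libraries. The part of these cell types in the DE levels of the 10 factors was not tested.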

How the data were processed

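The deposited table holds estimated counts per gene (expected counts); in each library 16.8% to 31.3% of rows hold a fraction. The submitters' processing notes list cutadapt, Bowtie, UMI-tools, Salmon and DESeq2 with no version, and GRCh38 as the build; the annotation release is not given in the sources used here. Per the labels' protocols, ribosomal RNA was depleted, and footprints were made with RNase I from lysates without cycloheximide. Of the identifiers 57030 (98.7%) were found in a table of gene names. The 10 factors and the gene lists were chosen with earlier results of these data known.

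Counts were rounded and tested with edgeR 4.0.16 under R 4.3.3 (TMM, filterByExpr, the robust quasi-likelihood F test, Benjamini-Hochberg over all genes tested, threshold 0.05) in 13 comparisons. Fits held the 4 RNA libraries of DE and hPSC, 4 Ribo libraries, 6 IP-Ribo libraries, all 8 RNA libraries for sBC against DE or hPSC, the 4 sBC RNA libraries, or 8 footprint libraries. Changes in footprints over RNA were interactions in fits of both assays. SE is the log2 fold change over the square root of F. The procedure was tested on simulated counts. Groups at 0 counts are given as bounds at 3 counts over the group, and intervals are exact at 95%. Likeness used log2(CPM + 0.5) of group means, for genes reaching 10 CPM. Named list genes were the 4 largest and 2 smallest changes past the threshold, of which the text gives a part; FOXH1, APELA and HNF4A, and the noncoding genes, were added after their values were seen. Some genes of the gut and pancreas list are not reported by name here.

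Alternatives were RLE size factors, no filter, a stricter filter (in 2 libraries at least 10 counts and 1 CPM), DESeq2 1.42.0, the replicate number as a block, protein-coding genes alone, all 8 RNA libraries in a fit, and each library left out. The replicates of every group differed by more than sampling noise. The labels give no batch. Tables were read and plotted in Python 3.11.15 (scipy 1.17.1, matplotlib 3.10.9, numpy 2.4.6, pandas 2.3.3).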

Additional observations from a re-analysis of the deposited data

Results flagged for a closer look

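Of the results on the 10 factors, 3 passed a test of the interaction of assay and stage. This was the change in footprints over RNA from DE to GFP+ sBC in IP-Ribo, where stage and tag cannot be told apart. LHX1 and HHEX had counts in both assays, with 14 and 42 footprint counts in GFP+ sBC. With libraries left out 1 at a time, their log2 changes ran from -2.39 to -1.03 (LHX1) and from -1.4 to -1.12 (HHEX). Both calls depended on single libraries. LHX1 changed by -1.64 on the log2 scale: its IP-Ribo level was 1.44 and 0.543 CPM in GFP+ sBC against 46.0 and 44.5 CPM in DE, and its RNA level was 16.9 and 12 CPM in GFP+ sBC against 286 and 338 CPM in DE. HHEX changed by -1.31: its IP-Ribo level was 3.03 and 2.85 CPM in GFP+ sBC against 46.9 and 38.0 CPM in DE, and its RNA level was 15.9 and 18.3 CPM in GFP+ sBC against 140 and 147 CPM in DE. EOMES had a fitted change of 7.2, with 0 RNA counts and 3 IP-Ribo counts in GFP+ sBC, all 3 in replicate 1. Without that library the fitted change was 0.39 (edgeR adjusted p = 1.0), so that EOMES is not read as a difference between stages.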

How the results depend on the processing

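Of 78 single results of the factors past the threshold, 11 lost the call in at least 1 refit; over 980 refits of the 78, the call was lost in 26 and the sign changed in 0. Counts of factors past the threshold moved by more than 1.5 times as follows. For the GFP sort the count was 1 with no filter, by DESeq2 and with all 8 RNA libraries, and 0 to 1 with libraries left out. For IP-Ribo against Ribo it was 2 with no filter and 1 by DESeq2. For footprints over RNA it was 1 by DESeq2 in Ribo for DE against hPSC, and 5 by DESeq2 for GFP+ sBC against DE. With libraries left out those ranged from 0 to 3 (Ribo, DE against hPSC), 0 to 1 (IP-Ribo, DE against hPSC) and 1 to 6 (GFP+ sBC against DE), and for DE against hPSC in Ribo the count ranged from 5 to 10. The cause was not tested.

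Values near 0 changed sign. Between GFP+ and GFP- sBC, GATA4 was 0.01 with protein-coding genes alone. For footprints over RNA between DE and hPSC, EOMES in Ribo was -0.05 with RLE factors and -0.06 by DESeq2. In IP-Ribo LHX1 was -0.04 with RLE factors and by DESeq2, -0.12 with no filter and -0.03 with protein-coding genes, and OTX2 was -0.07 with no filter. For GFP+ sBC against DE, MIXL1 was 0.04 with RLE factors and by DESeq2, 0.06 with no filter and 0.22 with protein-coding genes. With libraries left out, LHX1 in IP-Ribo of GFP+ sBC against hPSC ranged from -0.39 to 1.0. In the GFP sort GATA4 ranged from -0.15 to 0.07 and LHX1 from -0.24 to 0.99. In IP-Ribo against Ribo, GATA4 ranged from -0.02 to 0.67, LHX1 from -0.17 to 0.43 and OTX2 from -0.21 to 0.44. For Ribo over RNA, SOX17 ranged from -1.0 to 0.9, FOXA2 from -0.69 to 0.12, EOMES from -0.42 to 0.88, GSC from -1.13 to 1.84, HHEX from -0.57 to 0.4, LHX1 from -0.35 to 0.59 and OTX2 from -0.31 to 0.4. For IP-Ribo over RNA, DE against hPSC, GATA4 ranged from -0.14 to 0.58, MIXL1 from -0.29 to 0.47, LHX1 from -0.26 to 0.33 and OTX2 from -0.45 to 0.39. For GFP+ sBC against DE, MIXL1 ranged from -0.61 to 0.84 and GATA6 from -0.44 to 0.05.

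Replicate numbers were not taken as pairs, since the correlation of replicate differences between groups ran from -0.3 to 0.2. With the replicate number as a block the counts of factors stayed at 10 (DE against hPSC, each assay), 9 (each sBC group against DE), 10 and 8 (GFP+ sBC against hPSC, RNA and IP-Ribo), 0 (GFP sort, IP-Ribo against Ribo, and footprints over RNA for DE against hPSC) and 3 (GFP+ sBC against DE). The block moved counts over all genes from 481 to 1258 in the GFP sort, from 68 to 4 for Ribo over RNA and from 37 to 22 for IP-Ribo over RNA, DE against hPSC.

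Other counts over all genes were 6561 rather than 15591 for DE against hPSC RNA with all 8 RNA libraries. They were 1596 (no filter) and 1263 (DESeq2, and all 8 RNA libraries) rather than 481 for the sort. For IP-Ribo against Ribo they were 1526 (no filter), 1024 (DESeq2) and 52 (protein-coding) rather than 144. For Ribo over RNA they were 44 (RLE), 191 (no filter), 1434 (DESeq2) and 186 (protein-coding) rather than 68. For IP-Ribo over RNA they were 69, 720 and 17 (no filter, DESeq2, protein-coding) rather than 37, and for GFP+ sBC against DE 4765 (DESeq2) rather than 3144. With libraries left out the sort ranged from 384 to 7815 and DE against hPSC in Ribo from 73 to 5782. Depth limits the hPSC footprint levels, some on under 10 counts per library.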
